A study of Mus musculus with 54 samples.

Results

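Distal regions carrying Ser5P polymerase were defined on the chromatin maps of a mouse heart differentiation series as places with the enhancer mark H3K4me1, with RNA polymerase II phosphorylated on Ser5, and without the promoter mark H3K4me3. For each of 3 stages, the H3K4me1 regions of the stage's libraries were merged, and a region was kept when all 3 H3K4me1 libraries had it, both RNAPII Ser5P libraries overlapped it by at least 1 base and neither H3K4me3 library did. This gave 78 regions in mesoderm, 162 in cardiac precursors and 129 in cardiomyocytes. Merged over the stages by overlap, they were 347 regions out of 30446 distal H3K4me1 regions (1.14%). H3K4me1, RNAPII Ser5P and H3K4me3 of a region's own stage therefore chose the regions, and their values at that stage are given as a description without a test.

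H3K4me1 is laid down at enhancers, the distal DNA elements that bind transcription factors and raise the output of promoters elsewhere on the chromosome, and H3K27ac is added to those in use. Polymerase phosphorylated on Ser5 of the repeats in its C-terminal tail is the form that has begun transcription and is held close to a start site, most of it at promoters. Active enhancers are also known to recruit polymerase and to produce short, unstable enhancer RNAs, and the enhancers in use change as mesoderm turns into heart muscle. H3K27me3, deposited by Polycomb complexes, marks silenced developmental genes.

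The cells were embryonic stem cells of the 129/Ola strain with no genetic change named in the labels, grown as embryoid bodies with Activin A, BMP4 and VEGF and later plated in StemPro-34 medium with VEGF, bFGF and FGF10. They were taken on day 0 as stem cells (ESC), on day 4 as mesoderm (MES), on day 5.3 as cardiac precursors (CP) and on day 10 as cardiomyocytes (CM). Each later stage had 3 libraries of H3K4me1 and of H3K27me3 and 2 each of H3K27ac, H3K4me3 and RNAPII Ser5P, and ESC had 3 of H3K4me1, 2 of H3K27ac, H3K4me3 and H3K27me3, and 1 of RNAPII Ser5P. Replicates are biological by the series' design text, and each library is a population of cells in culture, so fewer cells with a region and a weaker signal per cell cannot be told apart. The files are lists of enriched regions called in each library, with a peak height per region, and no read depth, so no counting interval can be given. The lists held 31571 to 96999 regions for H3K4me1, 25170 to 73186 for H3K27ac, 21264 to 54528 for H3K4me3, 2929 to 38392 for H3K27me3 and 11332 to 48837 for RNAPII Ser5P. The lowest peak height listed for RNAPII Ser5P was 9 to 13 in replicate 1 and 26 to 28 in replicate 2 at the 3 later stages, so the replicates did not reach equally far down. The lists are on the mm9 build, and neither gene names nor sequences were matched to them here.

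Ser5P polymerase was rare at distal H3K4me1 regions. In MES, 78 of 14270 distal regions had it in both libraries (0.547%), in CP 162 of 10329 (1.57%) and in CM 129 of 13451 (0.959%). Among H3K4me1 regions with H3K4me3 in both libraries, 1373 of 7250 had Ser5P in both in MES (18.9%), 836 of 4649 in CP (18.0%) and 406 of 5128 in CM (7.92%). Read from the polymerase side, 11667 merged Ser5P regions were common to both MES libraries, of which 70 overlapped the distal set (0.600%). In CP the distal set was overlapped by 147 of 11606 shared Ser5P regions (1.27%), and in CM by 119 of 5771 (2.06%). Most shared Ser5P regions lay on H3K4me3, with 85.7% in MES, 70.2% in CP and 94.1% in CM.

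The requirement for both polymerase libraries removed more distal regions than it kept. In MES 435 distal regions had Ser5P in a single library, and the same held for 376 in CP and 629 in CM. Of the MES regions, 62 were in replicate 1 alone and 373 in replicate 2 alone. In CM they numbered 136 and 493. In CP the balance was the other way, with 260 in replicate 1 alone and 116 in replicate 2 alone. The distal H3K4me1 regions used for comparison in all that follows are those with Ser5P in neither library, which numbered 13757 in MES, 9791 in CP and 12693 in CM.

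Polymerase peaks at the distal regions were lower than at H3K4me1 regions with H3K4me3. Peak heights were ranked within each library's own list, as the percentile among all its regions. The highest Ser5P region over each H3K4me1 region was taken, and the sets were not compared within classes of length. The median percentile at distal Ser5P regions was 28.9 in replicate 1 and 73.4 in replicate 2 of MES. The corresponding medians at regions with H3K4me3 and Ser5P in both libraries were 63.8 and 82.4. In CP the distal medians were 59.6 and 60.8, against 84.5 and 85.0 at the H3K4me3 regions, and in CM they were 42.4 and 73.8, against 74.1 and 89.0. Distal regions that passed in a single polymerase library, which lie just outside the rule, had lower medians still in that library, 15.4 and 52.6 in MES, 35.1 and 43.2 in CP and 23.6 and 46.5 in CM. In the authors' peak height, the distal regions ranged over 10 to 109 (median 13) and 28 to 397 (median 67) in MES replicates 1 and 2. The ranges were 13 to 254 (median 19) and 26 to 399 (median 45) in CP, and 9 to 135 (median 12) and 28 to 386 (median 74) in CM. Many of the replicate 1 values in MES and CM therefore sat close to the lowest height listed.

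**Figure D1:**
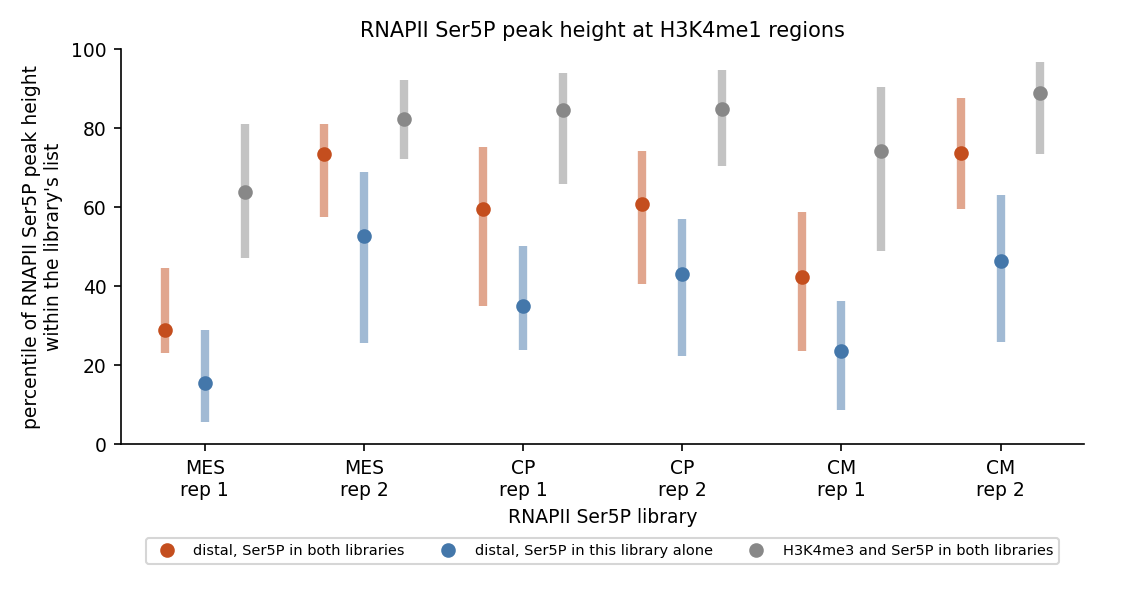
Percentile of RNAPII Ser5P peak height within each of the 6 libraries of MES, CP and CM, for distal regions with Ser5P in both libraries, distal regions with Ser5P in that library alone, and regions with H3K4me3 and Ser5P in both libraries. Points are medians and bars span the quartiles over regions. In each library the distal Ser5P regions lie between the other sets, from 28.9 to 73.8 in their medians.

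The ranks of single regions were partly shared between replicates. The Spearman correlation of the percentile over the regions of a stage, which share their pair of libraries, was 0.38 in MES (78 regions), 0.53 in CP (162) and 0.50 in CM (129). Both libraries placed the region above the 50th percentile of their list for 12 of the MES regions, 82 of the CP regions and 40 of the CM regions. Both placed it above the 90th percentile for 0, 3 and 7 regions. The longest Ser5P region over each distal region was narrow in replicate 1, with a median length of 162.5 bases in MES, 325 in CP and 150 in CM. In replicate 2 it was wide, with 2000, 662.5 and 1525 bases. All Ser5P regions over a distal region together covered a median of 8.45% of it in replicate 1 of MES and 83.6% in replicate 2. The medians were 18.6% and 28.1% in CP, and 7.62% and 50.0% in CM. The highest point of polymerase lay inside the distal region for 96.2% of regions in replicate 1 and 66.7% in replicate 2 of MES, for 95.1% and 87.0% in CP, and for 87.6% and 71.3% in CM.

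At some of these regions the stretch of polymerase reached H3K4me3. The Ser5P region over them touched an H3K4me3 region in at least 1 library for 12 of 78 regions in MES, 14 of 162 in CP and 24 of 129 in CM. The other 66, 148 and 105 were reached by no such region (84.6%, 91.4% and 81.4%). The touching regions were concentrated among the highest polymerase, with 11 of the 12 in MES, all 14 in CP and 21 of the 24 in CM above the median of the stage by mean percentile.

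Most distal Ser5P regions also lay among other Ser5P regions. Within 10 kb on either side, counting regions that do not overlap the distal region itself, the median number of further Ser5P regions was 2 and 2 in MES replicates 1 and 2, 6 and 4 in CP, and 1 and 1 in CM. At distal regions without Ser5P the median was 0 in each of the 6 libraries, and 82.5% to 87.0% had no further region within that distance. The same share per library at distal Ser5P regions ran from 13.6% in CP replicate 1 to 46.5% in CM replicate 2. Of the bases within 10 kb, a median of 2.88% and 30.9% was under Ser5P in MES, 7.31% and 9.25% in CP, and 1.38% and 6.50% in CM. Solitary regions, with no further Ser5P region within 10 kb in either library, numbered 9 in MES (11.5%), 20 in CP (12.3%) and 36 in CM (27.9%). They were 65 of the 369 stage regions. The Ser5P region over a solitary region was not itself counted and could still reach H3K4me3. This was so at chr14:73951976-73952425 in MES, 25 bases from H3K4me3.

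H3K27ac, which the rule did not use, was found more often at distal regions with Ser5P than at those without. In MES it overlapped 83.3% of the Ser5P regions in replicate 1 and 34.6% in replicate 2, against 45.1% and 25.2% of the distal regions without Ser5P. In CP the shares were 74.7% and 59.9%, against 38.6% and 25.5%, and in CM 86.8% and 86.8%, against 36.8% and 42.5%. The Ser5P regions were ahead in each of the 6 libraries, by 9.44 points in MES replicate 2 to 50.0 points in CM replicate 1. The mean difference was 35.4 points (SD 14.0 over 6 libraries), with p = 0.0312 in a two-sided exact sign-flip permutation test over libraries and 0.0312 after Benjamini-Hochberg adjustment over the 5 comparisons with distal regions lacking Ser5P. With 6 libraries 0.0312 is the smallest p that this test can give, and the libraries of a stage were read at the same regions.

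The height of H3K27ac followed the same order. Where H3K27ac was present, the median percentile of its peak height within the library was 63.5 and 46.3 at MES Ser5P regions, against 52.3 and 29.7 at MES regions without Ser5P. In CP it was 68.2 and 70.4, against 42.7 and 37.3, and in CM 82.9 and 87.3, against 38.5 and 48.2. The mean difference was 28.4 percentile points, higher in 6 of 6 libraries (p = 0.0312, adjusted p = 0.0312, two-sided exact sign-flip permutation). The highest H3K27ac region over each distal region was taken, so a longer distal region had more to draw from. Ser5P regions were the longer ones, and this percentile was not compared within classes of length.

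Counted region by region, 27 of 78 regions in MES had H3K27ac in both libraries (34.6%), where 19.7% of all distal MES regions did. In CP 89 of 162 had it (54.9%), where 22.4% of all distal regions did, and in CM 107 of 129 (82.9%), where 31.7% did. Ser5P without H3K27ac in either library was seen at 13 MES regions, 33 CP regions and 12 CM regions, which is 16.7%, 20.4% and 9.30% of them. Among all distal regions, 48.1%, 55% and 48.3% lacked H3K27ac in both libraries. The counts were close for higher and lower polymerase. Above the stage's median polymerase percentile 13 of 39 had H3K27ac in both libraries in MES, 48 of 81 in CP and 52 of 64 in CM, and at or below it 14 of 39, 41 of 81 and 55 of 65.

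The counts were further apart when the regions were split by their surroundings. This split was chosen after the data were seen and was not tested. Of the regions with no further Ser5P region within 10 kb, 7 of 9 had H3K27ac in both libraries in MES, 19 of 20 in CP and 36 of 36 in CM. Of those with another Ser5P region nearby, 20 of 69 had it in MES, 70 of 142 in CP and 71 of 93 in CM. Library by library, H3K27ac overlapped 88.9% and 77.8% of the solitary regions in MES, against 82.6% and 29% of the others. In CP the shares were 95% and 100% for solitary regions, against 71.8% and 54.2%, and in CM 100% in both libraries, against 81.7% in both. The solitary regions were ahead in 6 of 6 libraries with windows of 5, 10 and 20 kb, by 10.8 to 48.9, 6.28 to 48.8 and 15.9 to 56.1 points. Their median distance to H3K4me3 was 28725 bases in MES, 16800 in CP and 21062.5 in CM, against 6375, 11937.5 and 5725 bases for the others. Their median length was 2600 bases in MES, 2675 in CP and 2787.5 in CM, against 1975, 2500 and 2275 bases for the others.

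**Figure D2:**
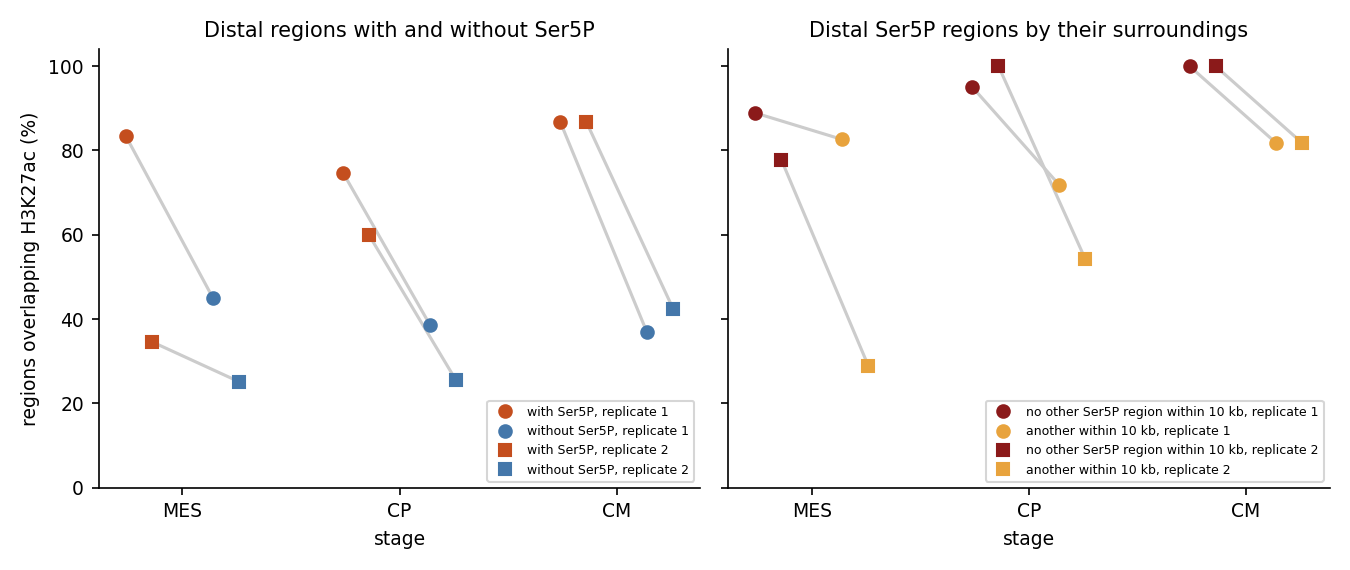
Share of regions overlapping H3K27ac (%) in each of the 6 libraries of MES, CP and CM. The left panel sets distal regions with Ser5P beside those without, and the right panel splits the Ser5P regions by whether a further Ser5P region lay within 10 kb, with lines joining values of the same library. Every line falls from left to right, by 9.44 to 50.0 points in the left panel and by 6.28 to 48.8 points in the right.

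Length moved with both marks. The rule's regions were long, with medians of 1987.5 bases in MES, 2550 in CP and 2375 in CM, against 1425, 1300 and 1150 bases at distal regions without Ser5P. Their share of all distal regions grew with length, from 0.288%, 0.424% and 0.292% of those under 1 kb in MES, CP and CM to 1.88%, 5.08% and 5.12% of those of 4 kb or more. A longer region has more bases to overlap a second mark, so H3K27ac was also read within 4 length classes, under 1 kb, 1 to 2 kb, 2 to 4 kb and longer. Ser5P regions had the higher share in 23 of the 24 combinations of class and library. Taken within classes, the mean difference over the 6 libraries was 24.8 points, smaller than the 35.4 points without classes. The exception was the 1 to 2 kb class in MES replicate 2, with 18.5% against 23.4%. In that library the next classes also hardly differed, with 37.9% against 37.9% at 2 to 4 kb and 60% against 58% above. In CM replicate 1 the 1 to 2 kb class had 87.1% against 40.0%, and the class above 4 kb had 100% against 65.6%. The H3K4me1 peaks themselves were high, at median percentiles of 73.9 to 95.2 of their lists over the 9 libraries, against 60.6 to 68.1 at regions without Ser5P.

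H3K27me3 was close to absent from both kinds of distal region. It was found in any library at 2 of the 78 Ser5P regions in MES (2.56%), 1 of 162 in CP (0.617%) and 0 of 129 in CM, where 3.02%, 2.31% and 0.528% of all distal regions had it. The share over the 9 libraries was 0.565% at Ser5P regions and 1.05% at regions without Ser5P, a mean difference of -0.49 points that was below 0 in 9 of 9 libraries (p = 0.00391, the smallest possible, adjusted p = 0.0195, two-sided exact sign-flip permutation). No Ser5P region had the mark in any CM library, in CP replicate 3 or in MES replicate 3. There the sign is below 0 as soon as any region without Ser5P has it. In CM the share without Ser5P was 0.0158% to 0.465%, so the small Ser5P sets could hardly show less. The difference rests on 3 regions with the mark, lost the threshold under 4 other settings of the rule and without replicate 1, and turned to 0.55 points without replicate 2.

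Ser5P regions lay nearer to H3K4me3 than other distal regions did. The median distance to the nearest H3K4me3 region of a library was 7600 and 12712.5 bases in MES, against 21475 and 30000 bases for regions without Ser5P. In CP it was 13575 and 21900 bases, against 24175 and 35600, and in CM 8225 and 12150, against 22825 and 28375. On the log2 scale the medians differed by -1.16 on average (SD 0.33 over 6 libraries), nearer in 6 of 6. With only polymerase regions that touched no H3K4me3 counted, the average difference was smaller, at -0.77. These H3K4me3 lists also entered the rule, so the distances are a description, with no test. With the H3K4me3 libraries of a stage merged, 29 of 78 regions in MES (37.2%), 53 of 162 in CP (32.7%) and 49 of 129 in CM (38%) were within 5 kb of H3K4me3, where 21.6%, 19.1% and 18.6% of all distal regions were. Within 1 kb there were 8, 10 and 15 regions, or 10.3%, 6.17% and 11.6%, where 5.05%, 5.13% and 4.74% of all distal regions lay so close. Within 50 kb there were 73 in MES (93.6%), 138 in CP (85.2%) and 112 in CM (86.8%), where 71.3%, 69.9% and 74.3% of all distal regions were.

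**Figure D3:**
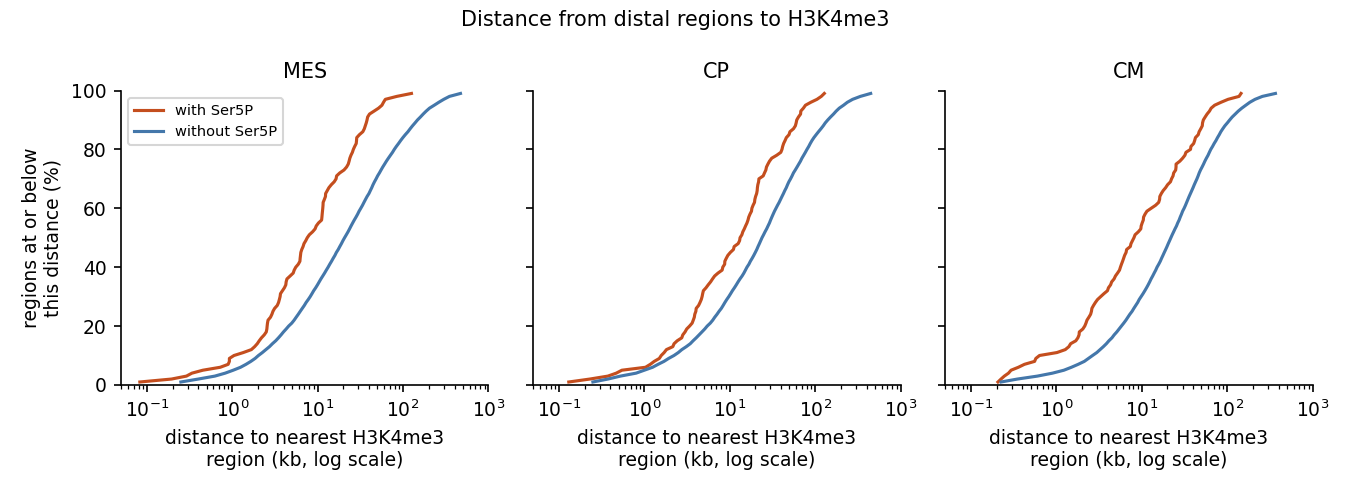
Cumulative share of distal regions (%) by distance to the nearest H3K4me3 region of the stage (kb, log scale), for regions with and without Ser5P in MES, CP and CM. The curve with Ser5P lies to the left at each stage, with medians of 7550, 13212.5 and 8100 bases, against 20650, 23875 and 21925 bases without Ser5P.

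The 3 regions farthest from H3K4me3 each stood alone in polymerase and had H3K27ac in both libraries of their stage. In CM this was chr13:52172076-52176575, 226750 bases from H3K4me3, with Ser5P heights of 18 and 94 at percentiles 69.4 and 83.8. It had no Ser5P in the ESC, MES or CP libraries, while H3K27ac was already present in both CP libraries and H3K4me1 in 1 of 3. In MES it was chr7:136915526-136919825, 178925 bases away, with heights of 13 and 50 at percentiles 28.9 and 63.1 and no Ser5P at the other stages. H3K4me3 was listed there in both CP libraries, which had no Ser5P there. In CP it was chr4:94983876-94986575, 155225 bases away, with heights of 14 and 84 at percentiles 23.9 and 81.9. H3K4me1 and H3K27ac were present there in every MES, CP and CM library, and Ser5P in 1 MES library, both CP libraries and no CM library.

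The set of regions turned over between stages. Of the 347 merged regions, 71 met the rule in MES alone (20.5%), 142 in CP alone (40.9%) and 117 in CM alone (33.7%). A further 10 met it in CP and CM, 6 in MES and CP, and 1 joined regions of all 3 stages. In all, 17 regions (4.90%) met it at more than 1 stage. Of merged distal regions, 19.9% were distal at more than 1 stage, a looser condition that asks for no Ser5P, so the shares are not like measures. The counts of Ser5P regions follow from 3 conditions that must all hold in every library, so the marks were read one by one.

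Polymerase was present at other stages more often than these counts show. At the regions chosen in the other later stages, the MES libraries had Ser5P at 15.5% and 32% of Ser5P regions, against 1.13% and 3.56% of regions without. The CP libraries had it at 50.2% and 40.1%, against 2.85% and 1.83%, and the CM libraries at 16.7% and 25.8%, against 0.582% and 1.08%. The mean difference was 28.2 points (SD 12.8 over 6 libraries), higher in 6 of 6 (p = 0.0312, adjusted p = 0.0312, two-sided exact sign-flip permutation). That p is the smallest this test can give, and the libraries of a stage were read at the same regions. Ser5P regions were the longer ones, and Ser5P at other stages was not compared within classes of length. In the single ESC library, Ser5P lay on 45 of the 78 MES regions (57.7%), 58 of the 162 CP regions (35.8%) and 37 of the 129 CM regions (28.7%). Of all distal regions of these stages, 5.37%, 5.32% and 6.68% had it. Some of these places carried the promoter mark in ESC, with H3K4me3 in both ESC libraries at 16 MES regions, 31 CP regions and 20 CM regions, or 20.5%, 19.1% and 15.5%, where 8.2%, 7.49% and 7.44% of all distal regions had it.

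**Figure D4:**
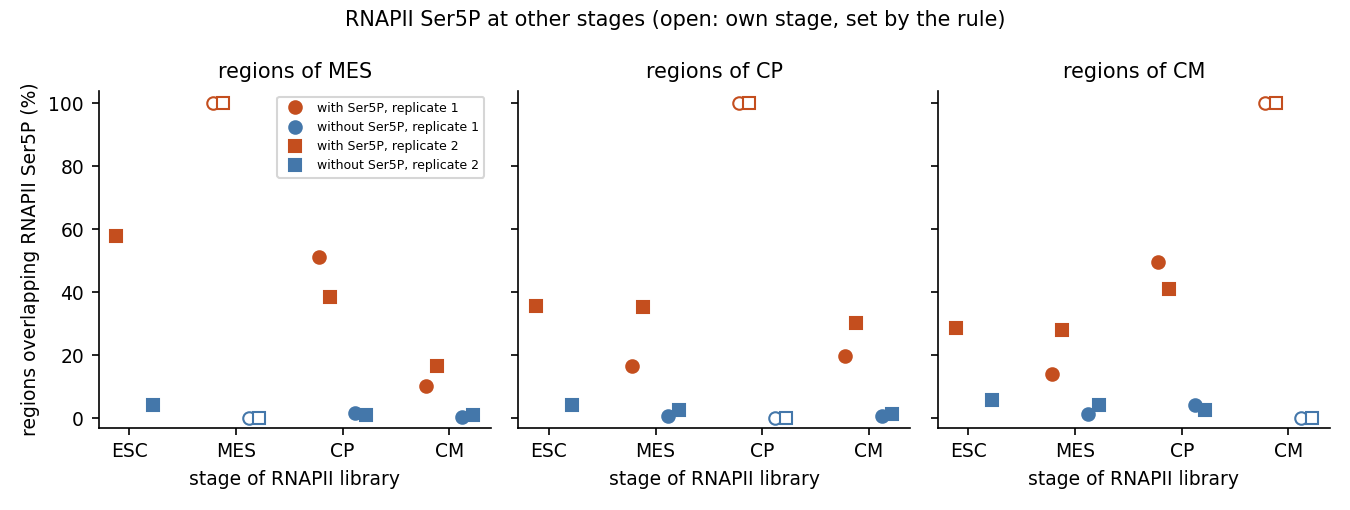
Share of distal regions (%) overlapping RNAPII Ser5P in each of the 7 libraries, for the regions of MES, CP and CM with and without Ser5P at their own stage. Open symbols are the stage whose libraries chose the regions, at 100% and 0% by the rule. At the other stages the Ser5P regions lie between 10.3% and 57.7%, and the others at or below 5.92%.

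The marks kept at a neighbouring stage were then counted for each set. Of the 78 MES regions, 24 had H3K4me1 in every CP library (30.8%, where 27.2% of all distal MES regions did) and 25 had Ser5P in both (32.1%, where 1.07% did). Both were incomplete, with H3K4me3 in neither library, at 35 (44.9%, where 70.9% were). Of the 162 CP regions, 113 had H3K4me1 in every CM library (69.8%, where 36.1% of all distal CP regions did) and 87 had H3K27ac in both (53.7%, where 17.1% did). Ser5P was in both CM libraries at 22 of them (13.6%, where 0.474% did), and its absence was the sole condition failed at 80 (49.4%, where 31.7% of all distal CP regions failed that condition alone). At 25 CP regions H3K4me3 appeared in at least 1 CM library (15.4%, where 6.11% did). Looking back from the 129 CM regions, 53 already had H3K4me1 in every CP library (41.1%, where 31.1% of all distal CM regions did), 57 had H3K27ac in both (44.2%, where 15% did) and 48 had Ser5P in both (37.2%, where 2.49% did). Differences in H3K4me1 and H3K27ac at other stages between regions with and without Ser5P were not tested.

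H3K27ac was on average highest at the regions' own stage, without passing an adjusted test that no single stage could pass alone. At the MES regions its share was 83.3% and 34.6% in the MES libraries, against 53.8% and 15.4% in ESC, 38.5% and 15.4% in CP and 26.9% and 23.1% in CM. At the CP regions it was 74.7% and 59.9% in CP, against 40.1% and 21% in ESC, 61.1% and 37% in MES and 58% and 65.4% in CM. At the CM regions it was 86.8% in both CM libraries, against 40.3% and 13.2% in ESC, 49.6% and 20.9% in MES and 64.3% and 46.5% in CP. In CM the groups did not overlap, whereas in MES replicate 2 lay below the first ESC and CP libraries, and in CP replicate 2 lay below a MES and a CM library. The own stage exceeded the mean of the others by 30.1 points in MES (p = 0.107, adjusted p = 0.161), 20.2 in CP (p = 0.179, adjusted p = 0.179) and 47.7 in CM (p = 0.0357, adjusted p = 0.107), in two-sided exact permutations of the stage labels of 8 libraries. The smallest p this test can give is 0.0357, which CM reached. After adjustment over the stages, that p passes the threshold only if every stage reaches it. The adjusted test therefore cannot decide the question for CM by itself. Distal regions without Ser5P also had H3K27ac most often, on average, at their own stage. At those of MES the share was 45.1% and 25.2% in MES, against 8.21% to 19.5% in libraries of other stages. In CP it was 38.6% and 25.5%, against 7.83% to 37.9%, and in CM 36.8% and 42.5%, against 6.69% to 29.6%. Whether the excess differed between regions with and without Ser5P was not tested.

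The highest polymerase in the set lay close to H3K4me3. At chr12:86819626-86821075, which met the rule in CP and CM, Ser5P heights were 254 and 399 in CP and 37 and 386 in CM, at or above the 92.1 percentile of each list. The Ser5P region over it was 9875 bases long in CP replicate 2 and touched H3K4me3, whose nearest region was 2775 bases away in CP and 2200 in CM. In CM the highest was chr1:135967101-135970525, with heights of 135 and 363, 2075 bases from H3K4me3, and with H3K27ac in neither CM library. Another in CM was chr14:55585776-55590175, with heights of 39 and 274, inside a single Ser5P region of 46325 bases in replicate 2. In MES the highest was chr14:73951976-73952425, with heights of 109 and 131, at 25 bases from H3K4me3, and this place had H3K4me3 in both CM libraries. Of the 4 highest regions of each stage, 1 had polymerase that did not touch H3K4me3, chr19:5805851-5813100 in CP, with heights of 87 and 207 at percentiles 96.5 and 97.1. Over its merged extent, which is longer than the MES region, it had H3K27ac in all 8 libraries and Ser5P in all 7, and H3K4me3 in both ESC and both CM libraries and in 1 of MES.

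The single merged region that joined all 3 stages was chr13:5868601-5870500, which is the MES region. The CP region, at 5868626 to 5869475, and the CM region, at 5869826 to 5870450, lay at different places within it and did not overlap, so no single place met the rule at all 3 stages. Ser5P heights were 10 and 331 in MES, 28 and 339 in CP and 17 and 277 in CM, above the 99th percentile in replicate 2 each time and at percentiles 5.63, 77.6 and 66.4 in replicate 1. Over the merged extent H3K27ac was present in all 8 libraries, and H3K4me3 in both ESC libraries and 1 CP library. The longest merged region, chr7:119894951-119908200, had 13250 bases and joined CP regions of 4650 and 8125 bases with a CM region of 12775 bases. Ser5P heights were 19 and 30 in the shorter CP region, 20 and 28 in the longer one, and 13 and 36 in CM. Over the merged extent H3K27ac was present in every MES, CP and CM library and in no ESC library.

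Some of the regions lay in groups along the chromosomes. The same count was not made for other distal H3K4me1 regions, so whether the Ser5P regions lie closer together than those was not tested. With 50 kb as the largest gap, 119 of the 347 regions had another within reach (34.3%), and the set came down to 265 places, of which 16 held 3 or more regions and 77 regions between them. The largest groups, picked out after their values were seen, held 12 regions on chromosome 8, 8 on chromosome 18 and 8 on chromosome 7. Taking 1 region per group and stage, a reduction added after the data were seen, left 76 MES regions, 111 CP regions and 105 CM regions. The differences from regions without Ser5P were then 36.9 points for H3K27ac and 26.9 points for Ser5P at other stages, each with p = 0.0312 (two-sided exact sign-flip permutation over 6 libraries). The difference in distance was then -1.19 on the log2 scale.

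The chromosome 8 group spanned 139000 bases at chr8:34895776-35034775, with 4 regions of CP and 9 of CM. Ser5P also lay outside the regions and covered 57.4% and 80.6% of all bases of the group in the CP libraries, 7.68% and 74.5% in CM, 2.19% and 31.7% in MES and 38.2% in ESC. H3K27ac was in both libraries at 7 of the 9 CM regions and 1 of the 4 CP regions. The chromosome 18 group, with 8 regions of CP over 59350 bases, had Ser5P over 23.5% and 68.4% of its bases in CP and over none or 2.44% in the CM libraries. None of its 8 regions had H3K27ac in both CP libraries. The chromosome 7 group spanned 105450 bases, which Ser5P covered to 10.8% and 9.67% in CP, and 6 of its 9 CP regions had H3K27ac in both libraries. The authors' background per base in the Ser5P regions of these groups, in lists with at least 5 such regions there, was 0.891 to 1.19 times the median of the list.

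**Figure D5:**
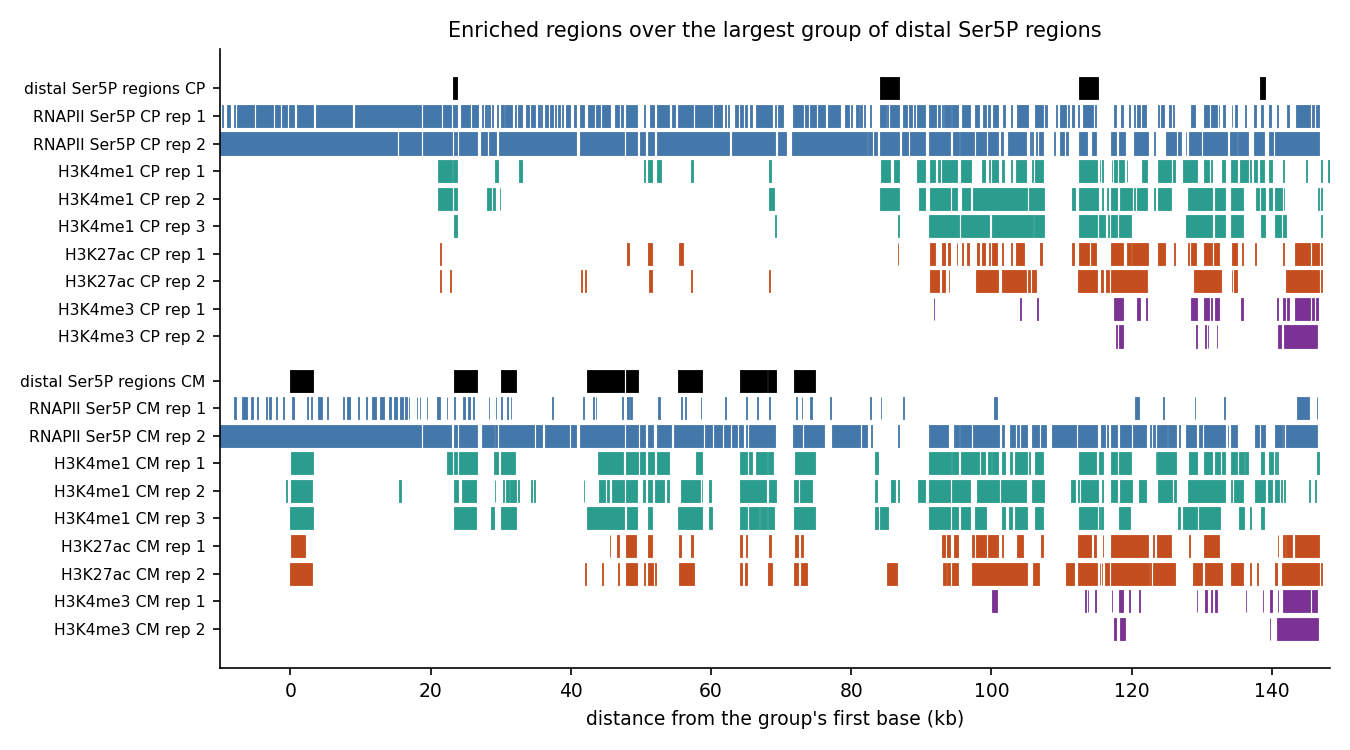
Enriched regions of CP (upper block) and CM (lower block) over the chromosome 8 group, by distance from its first base (kb), with 1 row per library, the distal Ser5P regions in black and very short regions drawn at the width of a thin line. RNAPII Ser5P covers 57.4% and 80.6% of the group in CP and 7.68% and 74.5% in CM, while the black regions stand where H3K4me1 was called in all 3 libraries and H3K4me3 in neither.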

How the data were processed

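ChIP-seq of 5 targets at 4 stages was used as 46 deposited lists of enriched regions. The 8 whole cell extract libraries have no list and were not analysed here. Reads were aligned with Bowtie to mm9, per the submitters' processing notes, and the caller is not given in the sources used here. Peak heights and background totals were taken as signal, as deposited by the authors, with a scaling that is not stated. The deposited lists give each region's length in bases. The 1 list without a header was read in the column order of the others. H3K27ac CM libraries, whose cell type label names stem cells, were grouped by title, source and time point.

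Chromosomes 1 to 19 and X were used. Overlap meant at least 1 base, printed starts are 1 above the listed start, and percentiles rank peak height within a list. Sets were compared over libraries by exact sign-flip permutation (64 patterns for 6 libraries, 512 for 9) and stages by exact permutation of labels (28 arrangements), with Benjamini-Hochberg adjustment over 5 and 3 tests and a threshold of 0.05. Distance to H3K4me3 was set out as a test of this kind and is given as a description, since H3K4me3 entered the rule. Regions named are the 4 of highest mean Ser5P percentile per stage, up to 4 of all stages, the 3 longest and the 3 farthest from H3K4me3, and other regions were chosen after their values were seen. The members and lists were chosen with earlier results of these data known. The code was tested on simulated data. Alternatives changed the merging, overlap, widening of H3K4me3, length minimum, list size, number of polymerase libraries, replicate block and replicates used. Further settings read H3K27ac and H3K27me3 shares within classes of length, or counted only polymerase regions touching no H3K4me3. Python 3.11.15, numpy 2.4.6, pandas 2.3.3, scipy 1.17.1 and matplotlib 3.10.9 were used.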

Additional observations from a re-analysis of the deposited data

How the results depend on the processing

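The number of regions depended most on the rule. Of 78 in MES, 162 in CP, 129 in CM and 347 merged, an equal number of top regions per list gave 18 in MES, 83 in CP, 146 in CM and 222 merged, so that CM held more regions than CP. Leaving out regions under 500 bases gave 16, 64, 28 and 103, and Ser5P in at least 1 library gave 513, 538, 758 and 1683. Leaving out a replicate number gave 94 to 854, 301 to 551, 149 to 949 and 505 to 2143. The rule then had fewer libraries to satisfy and was easier to meet, so these counts are not a measure of replicate spread alone. Without MES replicate 2 of RNAPII Ser5P, an alternative added after the data were seen, MES had 140 and the merged set 407.

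The difference in H3K27ac share was 32.1 to 42.1 points with a replicate number left out, in H3K27ac percentile 23.7 to 30.2, in log2 distance -1.42 to -0.87 and in Ser5P at other stages 20.2 to 31.4. Only 3 libraries remain without replicate 1 or 2, and an exact permutation p then cannot go below 0.25. Without MES replicate 2 of H3K27ac the difference was 40.6 points, and without MES replicate 2 of RNAPII Ser5P the Ser5P difference at other stages was 23.4 points, both p = 0.0625, the smallest an exact permutation over 5 libraries can give. Both were added after the data were seen. The H3K27me3 difference was -0.33 with H3K4me1 merged over all stages, -0.45 with overlap of 50% of the shorter region, -0.22 with H3K4me3 widened by 1 kb and -0.37 with Ser5P in at least 1 library, none past the threshold. It was -0.90 to 0.55 with a replicate number left out, reversed at 0.55 without replicate 2; the cause was not tested.

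The own-stage excess of H3K27ac was 25.0 to 38.5 points in MES, 14.7 to 22 in CP and 30.9 to 52.6 in CM with a replicate number left out. With the number as a replicate block the excess stayed at 30.1 points in MES, 20.2 in CP and 47.7 in CM. The exact permutation p was 0.0625, 0.1875 and 0.0625 over 16 arrangements. The smallest p that 16 arrangements can give is 0.0625, above the threshold. No call could pass under this setting, so it cannot show whether the calls hold. Same-numbered libraries correlated at 0.0266 to 0.192 over 6 pairs of stages, with 2 numbers, so they are taken to share a number and no more. Lists without read counts limit every share to what each library's own minimum height let through.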

Other observations

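Ser5P regions shared by both libraries of a stage and lying on neither H3K4me1 nor H3K4me3 numbered 1294 in MES (11.1%), 2911 in CP (25.1%) and 170 in CM (2.95%). H3K27ac was present in both libraries at 3, 18 and 3 of them. The shared Ser5P regions on distal Ser5P regions numbered fewer at each stage, with 70 in MES, 147 in CP and 119 in CM.

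The merged distal Ser5P regions were 2.11% of merged distal H3K4me1 regions on chromosome 18 (24 of 1135), 1.92% on chromosome 11 (41 of 2132) and 1.87% on chromosome 8 (30 of 1607). They were 0.412% on chromosome 1 (9 of 2182) and 0.366% on chromosome X (2 of 546). The chromosome 8 and 18 values include the groups of 12 and 8 regions.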
